A study of Mus musculus with 12 samples.

Results

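The interferon-inducible p200 genes, also called PYHIN genes, were followed in single mouse blood stem cells from 3 places of development. The 6 listed members were Mndal, Ifi203, Ifi204, Ifi207, Aim2 and Pyhin1, out of 22307 gene symbols with a row in any count table. They were chosen on values of these data: Mndal and Ifi203 stood among the genes with the highest fold changes of fetal liver over the aorta-gonad-mesonephros region (AGM), the embryonic site where blood stem cells arise. Levels of the members in fetal liver or bone marrow against AGM are therefore given as a description, with no test. The contrast of bone marrow with fetal liver was tested, but it shares its fetal liver libraries with the contrast that chose the members. Of the 6 symbols 5 had at least 1 unique molecular identifier (UMI, the tag that marks 1 captured RNA molecule) in the kept cells. Pyhin1 had no row in any table. The RefSeq gene table gives Pyhin1 as an older name of Ifi209, which had 4 UMIs in 1 bone marrow cell.

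The proteins of this family carry a HIN domain that binds DNA, and most also carry a pyrin domain that binds other pyrin proteins. Their genes lie in 1 cluster on mouse chromosome 1, and many are switched on by interferons, the cytokines of antiviral defence. Aim2 is the best known member: it binds double-stranded DNA in the cytosol and gathers Pycard (the adaptor ASC) and caspase-1 into an inflammasome, which matures interleukins and cuts gasdermin D. Mndal and Ifi203 encode mostly nuclear proteins, and Ifi204 encodes p204, which has been tied to myeloid differentiation and to the sensing of DNA.

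All samples were plates of cells labelled as haematopoietic stem cells, 1 cell per well, from which the nuclei had been taken away before the cytoplasmic RNA was read by a single-cell tagged reverse transcription method. There were 2 AGM plates, 5 fetal liver plates and 5 bone marrow plates, from a study of mouse lines for lineage barcoding (DARLIN), and the labels used here give no genotype, strain, age or surface markers for a plate. After wells with few genes or UMIs were set aside, 143 AGM cells, 454 fetal liver cells and 423 bone marrow cells were kept. Both AGM plates share 1 origin code in their titles, and fetal liver plates 1 to 3, fetal liver plates 4 and 5, bone marrow plates 1 to 3 and bone marrow plates 4 and 5 share 1 code each, so that tests rest on 1 AGM, 2 fetal liver and 2 bone marrow libraries. Whether such a code stands for an animal, a litter or a pool is not stated, and the title alone gives the tissue of bone marrow plates 4 and 5. Plates held between 2596681 and 15977740 UMIs in kept cells, and the median UMIs of a kept cell were 159228 for AGM, 54303 for fetal liver and 59558 for bone marrow. The 14 listed markers of blood stem and progenitor cells all had UMIs in each tissue. The 12 endothelial markers summed to 1990 to 2462 CPM (UMIs of the gene per 1000000 UMIs of the plate) on AGM plates, 844 to 1031 on fetal liver plates and 381 to 622 on bone marrow plates. The part of this endothelial RNA, highest on the AGM plates, in the results below was not tested. All 12 plates use the same 96 well barcodes, so barcodes name wells and were read only within a plate.

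The cluster spans 681 kb and holds 14 annotated p200 symbols, 11 of which had a UMI. In the GENCODE annotation of GRCm38, Aim2 lies on the forward strand at chr1:173350879-173466040, Ifi207 on the reverse strand at chr1:173723427-173741747 and Ifi204 on the reverse strand at chr1:173747293-173766943. Mndal (reverse strand, chr1:173849126-173942491) overlaps Ifi203 (reverse strand, chr1:173920407-173942672), and the exons of the pair share 37 bases. Because family members can share sequence, the share of 50-base stretches of a member's transcripts that also occur in transcripts of another p200 gene was counted: it was 27.2% for Mndal, 10.6% for Ifi203, 29.9% for Ifi204, 5.31% for Ifi207 and 0% for Aim2. Between Mndal and Ifi203 themselves, 5.51% of Mndal stretches occur in Ifi203. Reads from such stretches can be split between copies or dropped, and the counting rule for them is not stated, so the levels of Mndal, Ifi203, Ifi204 and Ifi207 carry that uncertainty. In the first 500 bases of the transcript the share was 85.6% for Ifi204, 35.4% for Ifi203, 19.4% for Mndal, 11.8% for Ifi207 and 0% for Aim2. In the last 500 bases it was 27.0% for Mndal, 0.6% for Ifi204 and 0% for Ifi203, Ifi207 and Aim2. Over whole transcripts of p200 genes outside the list, it ran from 0% for Ifi202b to 72.9% for Ifi211. Low counts of those genes and of Ifi204 carry the same uncertainty.

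The promoters of the 3 members with values on most plates are shown. Mndal and the second start of Ifi203 share nearly the same start region, while Aim2 does not. The part of these start regions in the levels of the genes was not tested. The sequences are RefSeq start regions of GRCm38.p6, from 250 bases before to 49 bases after the start base; of the 6 members 4 had an entry. Capitals mark matches to the core of the interferon-stimulated response element (ISRE), spelled GAAANNGAAA on either strand.
Mndal, chr1:173880138-173880437, reverse strand: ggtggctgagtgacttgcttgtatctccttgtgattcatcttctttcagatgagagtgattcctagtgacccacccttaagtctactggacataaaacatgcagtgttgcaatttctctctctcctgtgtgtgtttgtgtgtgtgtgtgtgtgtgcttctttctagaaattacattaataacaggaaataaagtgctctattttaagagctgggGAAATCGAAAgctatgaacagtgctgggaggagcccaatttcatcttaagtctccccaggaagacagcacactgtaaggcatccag
Ifi203, second start, chr1:173942443-173942742, reverse strand: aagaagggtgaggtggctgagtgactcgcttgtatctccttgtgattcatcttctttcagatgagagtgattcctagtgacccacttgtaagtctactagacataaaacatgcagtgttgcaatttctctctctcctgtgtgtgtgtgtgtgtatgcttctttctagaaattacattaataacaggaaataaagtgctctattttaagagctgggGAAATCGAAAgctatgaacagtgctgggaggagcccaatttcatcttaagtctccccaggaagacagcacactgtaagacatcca
Aim2, chr1:173420354-173420653, forward strand: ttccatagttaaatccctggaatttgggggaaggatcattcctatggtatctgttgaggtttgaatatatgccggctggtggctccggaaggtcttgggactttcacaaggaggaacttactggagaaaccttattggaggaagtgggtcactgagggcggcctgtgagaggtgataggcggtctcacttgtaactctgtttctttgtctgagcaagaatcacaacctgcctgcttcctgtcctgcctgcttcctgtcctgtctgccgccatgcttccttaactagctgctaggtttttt
The Mndal and Ifi203 windows are 97.6% identical over 289 aligned bases, and the match begins 36 bases before the start base in Mndal and 35 bases before it in Ifi203. Aim2 holds no match in this window, and neither does the first annotated start of Ifi203. A second start of Mndal has 1 match on the other strand, 54 bases before its start base, and Ifi207 has 1 match 41 bases before its own. Of the 12 p200 symbols with a promoter entry 9 held the ISRE core, against 3.45% of all 32544 mouse promoter windows of the same length. The first count takes a match at any start of a gene, with 2 starts each for Mndal and Ifi203, and the second takes single windows. Some family windows are near copies and not separate cases, such as Ifi206 and Ifi208, 99.3% identical over 281 aligned bases. The gamma-activated site, spelled TTCNNNGAA, was found in 1 of the 12, Ifi202b, and in 8.33% of all windows. The printed windows hold no gamma-activated site, and a match says nothing about whether a factor binds there.

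**Figure D1:**
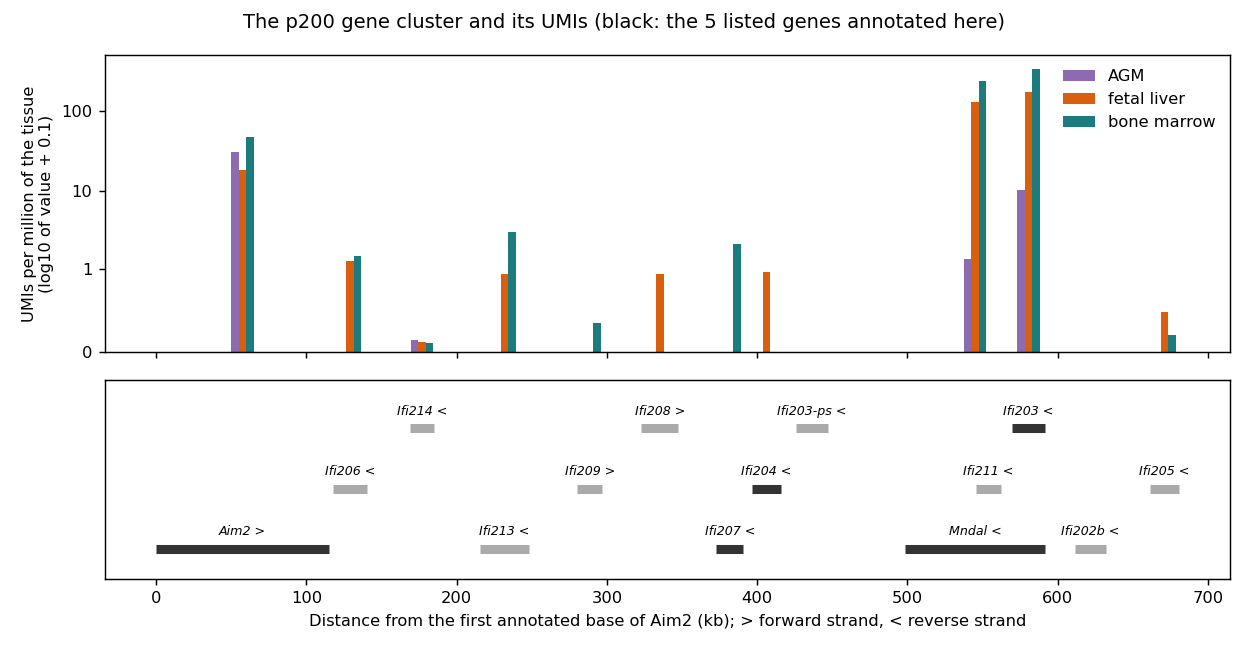
The p200 cluster along chromosome 1, with distance from the first annotated base of Aim2 in kb on the x axis; bars give the level of each gene in AGM, fetal liver and bone marrow cells as log10 of CPM plus 0.1, and the lower track gives gene spans (black for listed members, grey for other p200 genes). Mndal, Ifi203 and Aim2 stand out, and the other genes stay under 10 CPM.

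Mndal had a UMI in 4 of 143 AGM cells, 293 of 454 fetal liver cells and 262 of 423 bone marrow cells, at unequal depth. On the AGM plates it stood at 0.563 and 2.88 CPM. The fetal liver plates 1 to 5 had 155, 116, 146, 136 and 83.6 CPM, and the bone marrow plates 1 to 5 had 278, 193, 280.2, 179 and 195 CPM. The 3 sets of plates did not overlap: every fetal liver plate lay above both AGM plates, and every bone marrow plate lay above every fetal liver plate. The share of all genes whose plates separate in this way was not counted, and Mndal was chosen on fetal liver against AGM. Plate means were 1.72 ± 1.64 in AGM (SD, n = 2), 127 ± 28.4 in fetal liver (SD, n = 5) and 225 ± 49.9 in bone marrow (SD, n = 5). The AGM level rested on 33 UMIs in 4 of 143 cells, with 8, 1, 1 and 23 UMIs each. The fitted difference on the log2 scale was 6.81 for fetal liver against AGM and 7.61 for bone marrow against AGM. These sizes rest on few AGM molecules: fetal liver against AGM was 5.76 without AGM plate 1, 8.08 without AGM plate 2 and 8.46 without the top cell of each tissue, and bone marrow against AGM was 6.54, 8.87 and 9.29 in the same settings. Over all alternatives the first ran from 4.95 to 11.2 and the second from 5.57 to 12.1.

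Ifi203 followed the same order. AGM plate 1 had 15.9 CPM and AGM plate 2 had none, which allows up to 0.359 CPM. The fetal liver plates had 176, 130.4, 198, 203 and 134 CPM, against which the bone marrow plates 1 to 3 stood higher at 371, 342 and 386, while bone marrow plates 4 and 5 had 197 and 239.8. Fetal liver and bone marrow thus overlapped through bone marrow plate 4. Plate means were 7.95 ± 11.2 in AGM (SD, n = 2), 168 ± 34.8 in fetal liver (SD, n = 5) and 307 ± 84.0 in bone marrow (SD, n = 5). In AGM 11 cells had a UMI, and 1 of them held 144 of the 254 UMIs. The fitted log2 difference was 4.30 for fetal liver against AGM and 5.08 for bone marrow against AGM. Fetal liver against AGM was 3.71 without AGM plate 2, 5.45 without the top cell of each tissue and 7.28 with limma on plates, and bone marrow against AGM was 4.48, 6.22 and 8.20. Without AGM plate 1 no UMI of Ifi203 is left in AGM.

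Aim2, the DNA sensor, did not share this pattern. It had 22.5 and 47.6 CPM on the AGM plates. The fetal liver plates 1 to 5 had 23.7, 22.4, 6.40, 18.3 and 18.3 CPM. The bone marrow plates 1 to 5 spread widely, at 60.5, 77.3, 18.04, 1.93 and 41.3 CPM. The bone marrow range enclosed every plate of both embryonic tissues. Plate means were 35.0 ± 17.7 in AGM (SD, n = 2), 17.8 ± 6.83 in fetal liver (SD, n = 5) and 39.8 ± 30.6 in bone marrow (SD, n = 5). The fitted log2 difference was -0.54 for fetal liver against AGM and 0.57 for bone marrow against AGM. Over all alternatives the first ran from -1.12 to -0.06 and the second from -0.02 to 1.05.

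**Figure D2:**
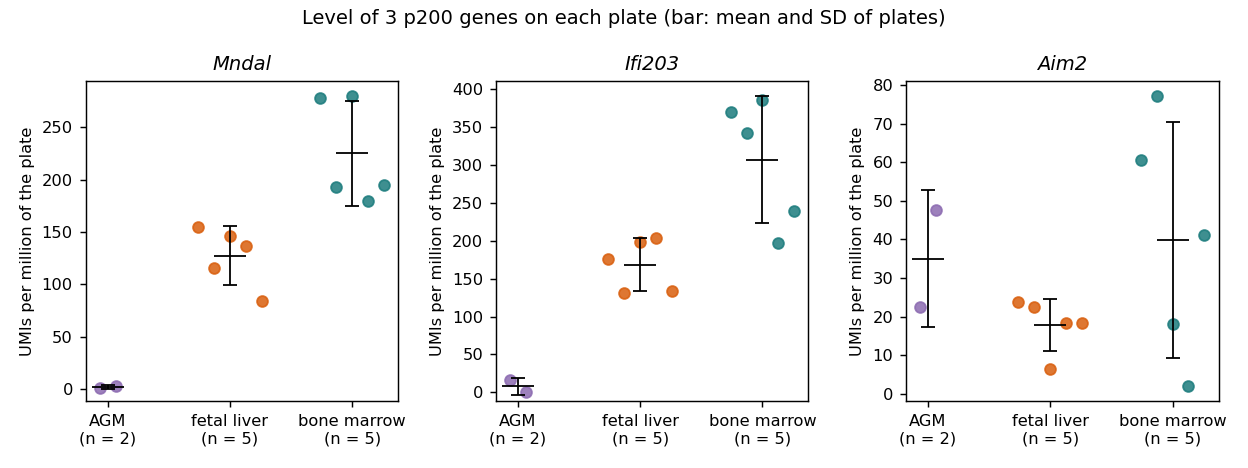
CPM over the plate's kept cells for Mndal, Ifi203 and Aim2; each point is a plate, and the black bar is the mean with the SD over 2 AGM, 5 fetal liver or 5 bone marrow plates. The Mndal plates fall into 3 separate bands (up to 2.88, 83.6 to 155 and 179 to 280.2), and the Aim2 plates of bone marrow run between 1.93 and 77.3. Mndal was chosen on fetal liver against AGM, and how many of all genes separate like this was not counted. The plates come from 1 AGM, 2 fetal liver and 2 bone marrow origin codes.

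The remaining members were at the limit of detection. Ifi204 had 25 UMIs in all, in 6 cells of fetal liver plate 4, of which 1 cell held 20. Ifi207 had 65 UMIs in all, in a single cell of bone marrow plate 2. Neither had a UMI on the other 11 plates. A tissue without a UMI of Ifi204 still allows up to 3 counts, so fetal liver was at least 8.49-fold higher than AGM and bone marrow at least 9.25-fold lower than fetal liver, bounds that cover counting error over summed UMIs only and rest on that 1 plate. For Ifi207 the level in bone marrow was at least 19.5-fold higher than in fetal liver by the same floor, from 1 cell. The p200 genes outside the list were as sparse: 6 of 12 symbols had a UMI, Ifi213 with 119 and Ifi206 with 81 at most, and of the 3 tested edgeR called none in any comparison (0 of 3 at an unadjusted p under 0.05, 0 with DESeq2, and 1 with limma, Ifi206 in fetal liver against AGM). Ifi213 and Ifi206 were without a UMI in AGM, and Ifi213 was at least 8.15-fold higher in fetal liver and at least 29.1-fold higher in bone marrow than in AGM. These bounds cover counting error only. Ifi213 ran from 0 to 4.75 CPM over the fetal liver plates (mean 0.974) and from 0 to 11.6 CPM over the bone marrow plates (mean 2.91).

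For bone marrow against fetal liver, edgeR's quasi-likelihood test with Benjamini-Hochberg adjustment over 15472 genes called 2.68% of genes higher and 2.06% lower. Mndal rose in bone marrow, with a log2 fold change of 0.80 ± 0.22 and an adjusted p of 0.040. Ifi203 had a log2 fold change of 0.77 ± 0.22 and an adjusted p of 0.0505, on the other side of the threshold of 0.05. For Aim2 the log2 fold change was 1.11 ± 0.42 with an adjusted p of 0.159, and Ifi204 and Ifi207 had adjusted p-values of 0.445 and 0.382. Thus 1 of the 5 tested members was called, and the near-equal changes of Mndal and Ifi203 fell on either side of the threshold. The Mndal change was positive in all 31 alternatives, and 15 of them called it. Of the 12 plates left out in turn, the loss of fetal liver plates 2, 3, 4 or 5 or of bone marrow plates 1, 3, 4 or 5 ended the call, with adjusted p-values of 0.062 to 0.364 and log2 fold changes of 0.74 to 0.93. The highest of these p-values came without fetal liver plate 4, where 117 genes were called over the whole table, against 732 with all plates.

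For Mndal and Ifi203, the larger summed level in bone marrow came with more UMIs per positive cell, while the share of positive cells at 20000 UMIs was below that of fetal liver. To compare cells of unequal depth each cell was thinned to 20000 UMIs, which left 141 AGM, 419 fetal liver and 392 bone marrow cells and took out 2, 35 and 31 shallower cells of these tissues. Mndal was then detected in 46.2% of bone marrow cells and 51.8% of fetal liver cells, and in 2.13% of AGM cells. Ifi203 was detected in 53.3% of bone marrow cells and 61.1% of fetal liver cells, and in 4.26% of AGM cells. The plate shares of bone marrow and fetal liver overlapped for both genes. Positive cells, in contrast, held on average 9.51 Mndal UMIs in bone marrow and 4.99 in fetal liver, and 11.7 Ifi203 UMIs in bone marrow and 4.93 in fetal liver. The ratio of bone marrow to fetal liver was 1.82 for the summed level of Mndal, 0.892 for its share of cells and 1.91 for its UMIs per positive cell. For Ifi203 these ratios were 1.94, 0.873 and 2.38, and for Aim2, whose summed level did not pass the test, they were 2.60, 1.11 and 2.21.

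Cells with at least 10 thinned UMIs of Mndal, a cut-off chosen after the values were seen, made up 13.6% to 29.6% of cells on the bone marrow plates and 4.0% to 11.0% on the fetal liver plates, without overlap. How many of all genes would separate the plates at this cut-off was not counted. For Ifi203 the ranges were 16.7% to 31.5% in bone marrow and 5.33% to 17.6% in fetal liver, which overlap. Over whole tissues 19.4% of bone marrow cells and 7.40% of fetal liver cells reached it for Mndal, and 24.7% of bone marrow cells and 9.55% of fetal liver cells reached it for Ifi203. Bone marrow cells also held more UMIs per detected gene of any kind: at the same 20000 UMIs the median cell had 1906 genes and 10.5 UMIs per gene in bone marrow, and 3064 genes and 6.53 UMIs per gene in fetal liver. The part of that general shift in the members' UMIs per positive cell was not tested.

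**Figure D3:**
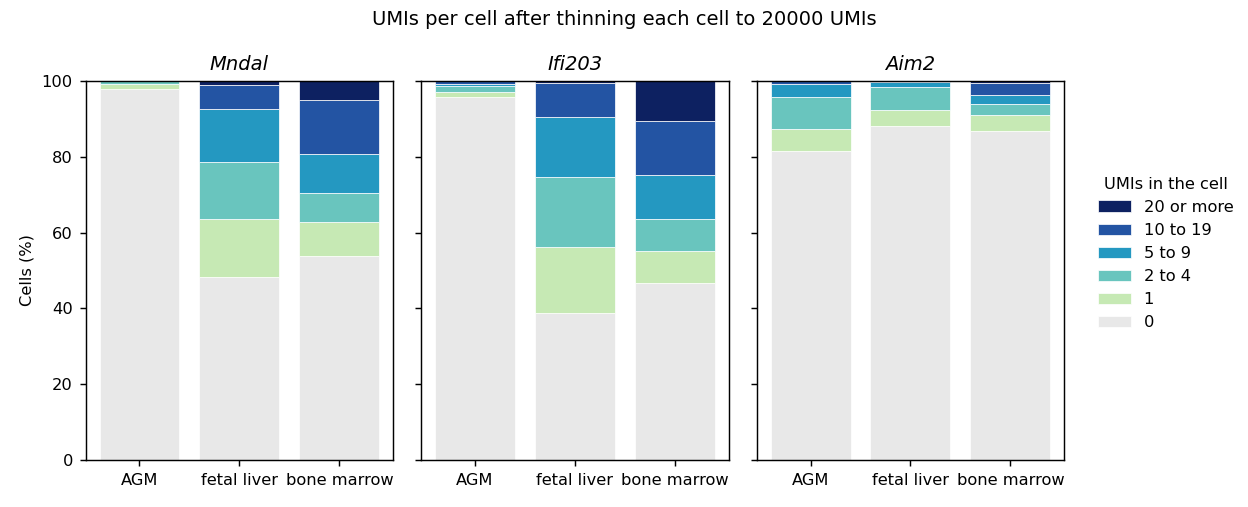
Share of cells by their UMIs of Mndal, Ifi203 and Aim2 after each cell was thinned to 20000 UMIs, for 141 AGM, 419 fetal liver and 392 bone marrow cells; grey is no UMI and darker blue is more UMIs. Cells with no UMI make up most of AGM for each gene, and cells with 10 or more UMIs of Mndal make up 19.4% of bone marrow and 7.40% of fetal liver.

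**Figure D4:**
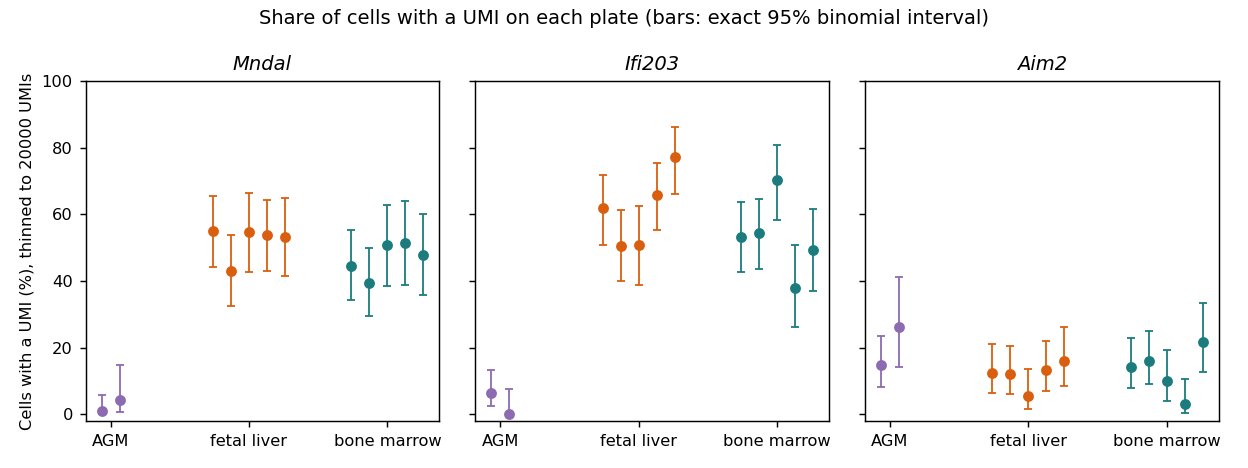
Share of cells with at least 1 UMI on each plate after thinning to 20000 UMIs, with the exact 95% binomial interval of the plate, which covers counting error over cells only. Shares of Mndal and Ifi203 lie near 0% on AGM plates and overlap between fetal liver and bone marrow, and shares of Aim2 overlap between all 3 tissues.

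Aim2 was found in fewer cells than either nuclear member outside AGM. Its thinned share was 18.4% of AGM cells, 11.9% of fetal liver cells and 13.3% of bone marrow cells, with plate ranges of 14.7% to 26.1%, 5.48% to 16.0% and 3.03% to 21.7%. In AGM it was instead the most widely detected member. Of the 141 AGM cells 106 had none of Mndal, Ifi203 and Aim2 and 35 had 1 of them. Of fetal liver cells 19.6% had none, 40.8% had 1, 34.8% had 2 and 4.77% had all 3. Of bone marrow cells 22.2% had none, 46.2% had 1, 28.3% had 2 and 3.32% had all 3.

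Mndal and Ifi203 occurred together in 102 of 392 bone marrow cells and 147 of 419 fetal liver cells, and in no AGM cell. Ifi203 had a UMI in 56.4% of bone marrow cells with Mndal and 50.7% of those without, and in 67.7% of fetal liver cells with Mndal and 54.0% of those without. The share was higher in the cells with Mndal on 4 of 5 bone marrow plates, bone marrow plate 3 being the exception, and on 4 of 5 fetal liver plates, fetal liver plate 5 being the exception. Aim2 occurred in 11.0% of bone marrow cells with Mndal and 15.2% of those without, and in 11.1% of fetal liver cells with Mndal and 12.9% of those without. These shares describe single cells of few plates and carry no test.

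Macrophages express many interferon induced genes, so their markers were counted in cells with and without Mndal. Of the 13 of these markers with a UMI, bone marrow cells had 1.14 on average with Mndal and 0.986 without it. Fetal liver cells had 1.47 with Mndal and 1.36 without it. Among thinned AGM cells, the 3 with Mndal had 1.0 on average and the 138 without it had 1.11. Over the whole list of 14 macrophage and monocyte markers the summed level was 388 to 401 CPM on AGM plates, 573 to 698 on fetal liver plates and 491 to 776 on bone marrow plates, with C1qa, C1qc and Timd4 at 0 in AGM, C1qa at 0 in fetal liver, and C1qa and Fcgr1 at 0 in bone marrow. With cells of at least 3 such markers left out, the Mndal log2 fold change of bone marrow against fetal liver was 0.85 and its adjusted p in edgeR 0.045. The same setting left 1 of the 33 Mndal UMIs of AGM, so that 32 of them came from AGM cells with at least 3 of these markers, and 233 of the 254 Ifi203 UMIs of AGM remained. It counted markers without thinning and took out 22 of 143 AGM cells. AGM cells were the deepest, so more markers can reach a UMI in them. Whether the Mndal UMIs of AGM are macrophage RNA was not tested. Of 21 splits of a tissue's cells by a marker and a member over 5 plates, 2 ran 1 way on all 5, and they are given for that reason. Over 5 plates some splits run 1 way by chance alone, and these 2 carry no test. Among fetal liver cells those with a UMI of the proliferation gene Mki67 had Ifi203 in 73.3%, against 57.8% of cells without, higher on 5 of 5 plates. Among bone marrow cells those with the megakaryocyte and stem cell integrin Itga2b had Aim2 in 8.33%, against 14.2% of cells without, lower on 5 of 5 plates, which rests on 5 positive cells of 60.

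Around Aim2, the inflammasome genes were uneven. In fetal liver against AGM, where 2.92% of all genes were called higher and 1.91% lower, 3 of 12 tested inflammasome genes rose and none fell. Casp1, the caspase that Aim2 activates, had a mean of 14.1 CPM in fetal liver (CPM on library sizes scaled by TMM, as beside every test below) and no UMI in 143 AGM cells, which allows up to 2.10% of cells with a captured UMI and does not limit the share that express the gene. It was at least 143-fold higher in fetal liver by the floor of 3 UMIs (adjusted p = 5.26e-06, edgeR). Over single plates Casp1 stood at 15.2, 30.5, 15.5, 5.04 and 14.5 CPM in fetal liver and at 0 on both AGM plates. Il18, an interleukin that caspase-1 matures, rose by 4.79 ± 0.65 on the log2 scale (36.7 CPM in fetal liver and 1.32 CPM in AGM, adjusted p = 6.72e-05, edgeR). Gsdmd, the pore-forming gasdermin, rose by 1.77 ± 0.43 (44.7 CPM in fetal liver and 13.1 CPM in AGM, adjusted p = 0.018, edgeR), and this call ended with plain library sizes and without fetal liver plate 4 or bone marrow plate 5. The adaptor Pycard had 211 CPM in fetal liver and 129 CPM in AGM with an adjusted p of 0.154. The median log2 change of the list, with genes at 0 set at their bound, was 0.72, against 0.05 over all genes.

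Casp1 rose again in bone marrow against fetal liver, by 2.14 ± 0.45 on the log2 scale (62.5 CPM in bone marrow and 14.1 CPM in fetal liver, adjusted p = 0.0070, edgeR), as the 1 called gene of 12. Of all genes 2.68% were called higher there and 2.06% lower. All 5 bone marrow plates, at 40.1, 83.7, 103, 43.5 and 51.3 CPM, lay above all 5 fetal liver plates. How many of all genes separate these plates was not counted. The Casp1 call ended without fetal liver plate 4, its lowest fetal liver plate. The list's median was 1.24 at the bound, over 11 genes above the floor in either tissue. By fitted changes it was 0.99 over the 12 tested genes, against 0 over all genes. For bone marrow against AGM, where 5.29% of all genes were called higher and 3.63% lower, 4 of 12 rose, among them Casp1 (at least 633-fold higher), Il18 (5.27 ± 0.67, adjusted p = 1.55e-05, edgeR) and Gsdmd (2.32 ± 0.45, adjusted p = 0.0015, edgeR). Aim2 and Casp1 were found in the same thinned cell in 15 of 52 bone marrow cells with Aim2 and in 5 of 50 fetal liver cells with Aim2, and in 0 of 26 AGM cells with Aim2. Over all thinned cells Casp1 had a UMI in 23.7% of bone marrow and 12.2% of fetal liver cells, so the counts among cells with Aim2 lie near the overall share. Aim2, Pycard and Casp1 were found together in 9 bone marrow cells and 4 fetal liver cells.

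**Figure D5:**
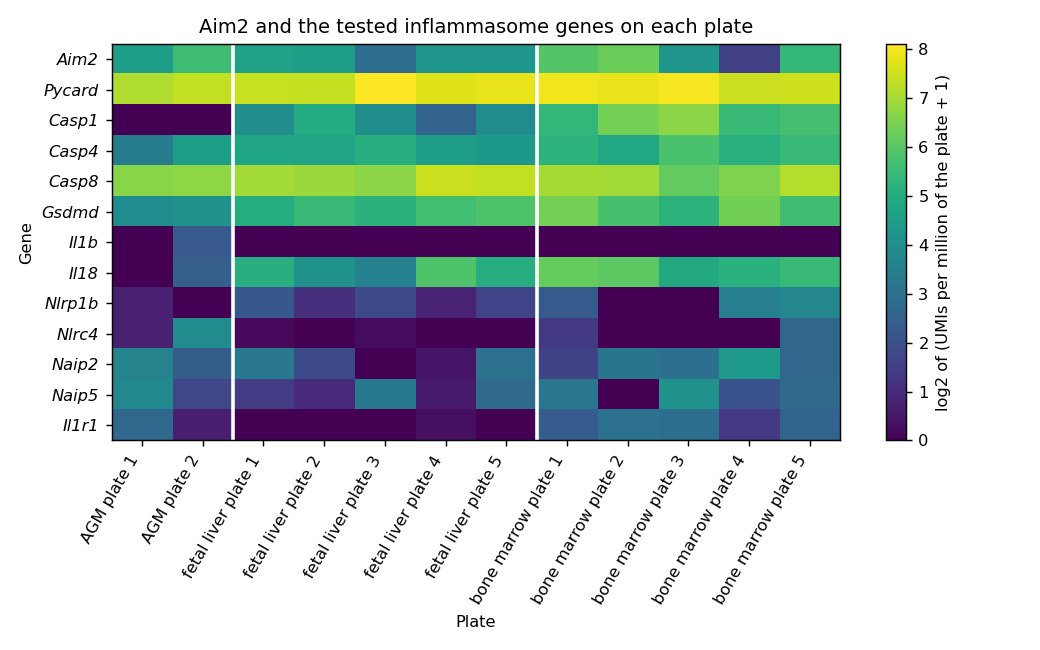
Level of Aim2 and the 12 tested inflammasome genes on each of the 12 plates as log2 of CPM plus 1 (colour scale), with white lines between AGM, fetal liver and bone marrow plates. Casp1 is at 0 on both AGM plates and above 0 on all 10 others, and Il1b has UMIs on AGM plate 2 alone.

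Of 12 tested interferon receptors and signal transducers the 2 most abundant, the kinase Jak1 and the receptor chain Ifnar2, had log2 changes of 0.21 ± 0.30 and 0.18 ± 0.30 in fetal liver against AGM (adjusted p = 0.802 and 0.840, edgeR). Against AGM, 2 of the 12 rose in bone marrow, Irf9, a transcription factor of interferon signalling, by 1.66 ± 0.40 (adjusted p = 0.010, edgeR), and Jak1 by 1.03 ± 0.31 (adjusted p = 0.040, edgeR). Both calls ended with plain library sizes, and also when either fetal liver plate 4 or bone marrow plate 5 was left out. The list's medians were 0.20, 0.83 and 0.54 in fetal liver against AGM, bone marrow against fetal liver and bone marrow against AGM, against 0.05, 0 and 0.04 over all genes. In the same order 2.92%, 2.68% and 5.29% of all genes were called higher, and 1.91%, 2.06% and 3.63% lower.

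Of 9 interferon regulatory factors and partners, 2 rose in fetal liver against AGM. Irf1, an activator of interferon target genes, rose by 1.63 ± 0.39 (51.5 CPM in fetal liver and 16.6 CPM in AGM, adjusted p = 0.016, edgeR). Batf2, an interferon-inducible partner of Irf1, had 87 UMIs in fetal liver and 1 in AGM, a ratio of 88.6 with an exact 95% counting interval of 15.5 to 3540 (adjusted p = 0.043, edgeR). These 2 calls ended with plain library sizes, and also when either fetal liver plate 4 or bone marrow plate 5 was left out. For bone marrow against fetal liver edgeR called none of the 9 (3 at an unadjusted p under 0.05, 0 with DESeq2, and 3 with limma, namely Irf1, Irf2 and Irf4). The most abundant there, Irf2 and Irf3, had log2 changes of 0.53 and -0.16. Against AGM, 3 of 9 rose in bone marrow: Irf1 by 2.30 ± 0.41, Batf2 and Irf5, the last by 2.07 ± 0.63. Batf2 had 326 UMIs in bone marrow and 1 in AGM, a ratio of 299 with an interval of 53.3 to 11855. The 3 calls ended without fetal liver plate 4. The medians of the list were 1.10, 0.31 and 0.70 in the 3 comparisons. The last is over 8 genes above the floor in either tissue, and by fitted changes of all 9 it was 0.85. Shares of all genes called higher were 2.92%, 2.68% and 5.29% in these comparisons, and those called lower 1.91%, 2.06% and 3.63%.

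Of 28 tested interferon induced genes, 5 rose and 1 fell in fetal liver against AGM. The GTPase Ifi47 rose by 3.56 ± 0.35 (112 CPM in fetal liver and 9.52 CPM in AGM, adjusted p = 1.03e-06, edgeR), Ifi27 by 1.89 ± 0.31 (80.6 CPM in fetal liver and 21.8 CPM in AGM) and the antiviral membrane protein Ifitm1 by 1.96 ± 0.34 (2493 CPM in fetal liver and 642 CPM in AGM). The gene that fell, named after its value was seen, was Bst2 (tetherin), at 152 CPM in fetal liver and 390.5 CPM in AGM; without fetal liver plate 4 it was not called. Between bone marrow and fetal liver 7 of 28 rose in bone marrow and none fell, led by Ifi27 (1.68 ± 0.23, adjusted p = 9.73e-05, edgeR), Trim30a (1.19 ± 0.26, adjusted p = 0.0094, edgeR) and the GTPase Iigp1 (2.64 ± 0.58, adjusted p = 0.010, edgeR). Of these 7 calls, leaving out fetal liver plate 4 kept 0, leaving out bone marrow plate 5 kept 1, and plain library sizes kept 3. Against AGM, 10 of 28 rose in bone marrow, led by Ifi47, Ifi27 and Iigp1 at log2 changes of 3.80, 3.57 and 6.98, and 5 were called without fetal liver plate 4. The medians of the list were 0.65, 0.94 and 1.70 in the 3 comparisons in the same order. Beside these counts, 2.92%, 2.68% and 5.29% of all genes were called higher, and 1.91%, 2.06% and 3.63% lower.

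Of 16 tested genes of cytosolic DNA sensing and clearing edgeR called none in fetal liver against AGM (5 at an unadjusted p under 0.05, 0 with DESeq2, and 2 with limma, Ikbke and Samhd1). Relative to fetal liver, bone marrow differed in 2 genes: Zbp1, a sensor of left-handed nucleic acids, rose by 5.12 ± 1.12 (504 UMIs in bone marrow and 20 in fetal liver, adjusted p = 0.0091, edgeR), and Rnaseh2a, a subunit of the enzyme that clears RNA from DNA, fell by 0.84 (82.8 CPM in bone marrow and 148 CPM in fetal liver, adjusted p = 0.032, edgeR). Both calls ended without fetal liver plate 4, and that of Rnaseh2a ended also with plain library sizes and without bone marrow plate 5. Relative to AGM Zbp1, with no UMI in AGM, was at least 154-fold higher in bone marrow, the nuclease Dnase2a rose by 2.85 ± 0.61 (adjusted p = 0.0038, edgeR) and Rnaseh2a fell by 0.86. The medians were 0.47, -0.08 and 0.28. Among all genes 2.92%, 2.68% and 5.29% were called higher in the 3 comparisons, and 1.91%, 2.06% and 3.63% lower.

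Among genes listed for nuclear roles tied to p200 proteins, only Cdkn1a, Id1 and Id3 passed the test. They were lower in the later tissue in each comparison that called them. Of 13 tested, Cdkn1a, the cell cycle inhibitor p21, fell in fetal liver against AGM (6.55 CPM in fetal liver and 59.2 CPM in AGM, adjusted p = 0.0058, edgeR), a call that ended without fetal liver plate 4. The comparison of bone marrow with fetal liver had 2 that fell: Id3, an inhibitor of helix-loop-helix factors, had 5 UMIs in bone marrow and 3295 in fetal liver (adjusted p = 5.25e-11, edgeR), and its relative Id1 had 89 UMIs in bone marrow and 2547 in fetal liver (adjusted p = 3.46e-07, edgeR). Cdkn1a, Id1 and Id3 also fell in bone marrow against AGM. Without fetal liver plate 4 the calls of Cdkn1a, Gsdmd, Dnase2a and Rnaseh2a in that comparison ended. The list's medians were -0.08, -0.38 and -0.75. Over all genes the shares called lower were 1.91%, 2.06% and 3.63% in the 3 comparisons, and those called higher 2.92%, 2.68% and 5.29%. Of the 47 other genes annotated within 500 kb of the cluster 19 had a UMI and 5 could be tested, and edgeR called none in any comparison (1, 2 and 1 at an unadjusted p under 0.05 in fetal liver against AGM, bone marrow against fetal liver and bone marrow against AGM; DESeq2 called 0, 1 and 1, the gene Olfr417, and limma 1, 0 and 0, the gene Ackr1).

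Over the 12 plates, the genes most like Mndal by Pearson r of log2 of CPM plus 1 were Psmb9, a subunit of the interferon-inducible immunoproteasome (r = 0.988), Tbxas1, thromboxane synthase (0.986), Ifi47 (0.979), Srgn, the granule proteoglycan serglycin (0.977), and Mettl7a1 (0.973), out of 8951 genes ranked. Ifi203 came 79th for Mndal with r = 0.885. For Ifi203 the nearest were Tgfbi (0.958), Ssh3 (0.958), Sp100 (0.956), Tnfrsf18 (0.955) and Snx10 (0.953). Aim2 had r = -0.13 with Mndal and -0.16 with Ifi203. Psmb9 had 16.1 and 29.2 CPM on AGM plates, 158 to 204 on fetal liver plates and 258 to 322 on bone marrow plates. The plates of a tissue share libraries and depth, so these values are a description of 12 plates.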

How the data were processed

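The authors deposited 1 table of UMI counts per plate, with gene symbols in rows and wells in columns and no normalization, which lists only genes with at least 1 UMI on that plate. The submitters' processing notes name UMI-tools, SAMtools, featureCounts and the build mm10, without versions. The annotation and whether strand was used in counting are not given in the sources. No column of another sample was present.

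The members and gene lists were chosen with earlier results of these data known. Kept wells had 1000 or more genes, 3000 or more UMIs and a mitochondrial share under 20%, which left 1020 of 1152. No doublet caller was run, since cells were sorted singly, and cells were not clustered. UMIs were summed over plates with 1 origin code (5 libraries) and compared with edgeR (4.0.16, under R 4.3.3): TMM scaling, filterByExpr, its quasi-likelihood test and Benjamini-Hochberg adjustment over 15472 genes at 0.05, with 2 residual degrees of freedom. AGM has 1 library, assumed to vary like the others, and p-values measure the spread between libraries, which may be technical. An error after a fold change is the change divided by the square root of F, close to a standard error. The test was tried on simulated counts first. Values per plate are CPM, UMIs per 1000000 UMIs of the plate's kept cells, and means per tissue beside a test are CPM on TMM-scaled library sizes. A fold against 0 uses a floor of 3 UMIs over the tissue. Intervals cover counting error only, at 95%. Of each list up to 3 called genes per comparison with the smallest adjusted p are named, or the 2 most abundant. Gene positions come from GENCODE (GRCm38) and promoters from RefSeq (GRCm38.p6). Alternatives were DESeq2 1.42.0, limma 3.58.1 on plates with the origin code as a block, other scalings, filters and units of replication, and each plate or origin code left out. The result for 1 gene of the interferon receptor and signal transducer list is not reported here.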

Additional observations from a re-analysis of the deposited data

Results flagged for a closer look

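In fetal liver, plate 2 lay apart from the 4 other plates in the share of thinned cells with Mndal, at 42.9% against 53.3% to 55.1%. Its CPM, 116, did not lie apart. Ifi204 lay apart on fetal liver plate 4, with 3.07 CPM and 2.20% of thinned cells, since the other 4 plates had none. Ifi207 lay apart on bone marrow plate 2, with 8.62 CPM and 1.06% of thinned cells, from its 1 positive cell. By this rule, applied to 16 groups of 5 plates, chance flags about 1 in 20.

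Among wells set aside as too poor, 5 of 57 bone marrow wells, 8.77%, had a UMI of Mndal, which is above the share that a count of 0 would allow. These wells had a median of 330 UMIs in all. Ifi203 had a UMI in 3 of the 57 bone marrow wells. Of 26 fetal liver wells set aside, with a median of 1575 UMIs, 1 had Mndal and 3 had Ifi203. None of 49 AGM wells set aside had either, at a median of 24 UMIs.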

How the results depend on the processing

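Of the members, Mndal kept its positive log2 change of bone marrow against fetal liver in 31 of 31 alternatives (0.62 to 0.93) and was called in 15, with adjusted p-values from 0.0015 to 0.541. It lost the call with only the 2 tissues compared (0.78, adjusted p = 0.077, edgeR), plain library sizes, added after seeing the data (0.76, adjusted p = 0.116, edgeR), each plate as a library without a replicate block (0.83, adjusted p = 0.054, edgeR) and with a replicate block of the plate number (0.80, adjusted p = 0.099, edgeR), cells scaled to 1 total (0.82, adjusted p = 0.081, edgeR) and a stricter cell filter (0.79, adjusted p = 0.051, edgeR). Leaving out plates or origin codes gave 0.68 to 0.93. Ifi203 was positive in 31 of 31 (adjusted p 3.73e-05 to 0.383) and gained a call with DESeq2 size factors (0.77), DESeq2 (0.77), no filter on low counts (0.77) and limma (0.92); leaving out plates gave 0.49 to 0.99, the highest without bone marrow plates 4 and 5, which called it. Aim2 was called in 1 of 31, also without bone marrow plates 4 and 5, and ranged from 0.58 to 1.47 with plates left out.

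Plate numbers did not pair plates: deviations of same-numbered plates had r of -0.020 to 0.069, those of other plates -0.057 to 0.034. With each plate as a library, 594, 846 and 982 genes were called with the replicate block and 608, 997 and 1216 without it, in fetal liver against AGM, bone marrow against fetal liver and bone marrow against AGM.

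These counts were 748, 732 and 1380 in the main test. Only the 2 tissues compared gave 2218 in the first and 331 in the second, limma 2170, 2127 and 3610, cells with at least 1 UMI 348 in the first, and cells with at least 2 UMIs 1809, 1348 and 2432. With plates or codes left out they ran from 181 to 2186, 117 to 1958 and 329 to 2748, the lowest each time without fetal liver plate 4. Bone marrow plate 5 left out gave 426, 402 and 864. Plain library sizes moved the median of all genes by -0.23, -0.04 and -0.27 on the log2 scale. The cause of the changed calls was not tested.

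Shares of cells depend on depth. Thinned to 10000 UMIs, Mndal was found in 41.1% of bone marrow and 40.8% of fetal liver cells. Ifi203 was found in 48.6% of bone marrow and 49.0% of fetal liver cells. Without thinning Mndal was found in 61.9% of bone marrow and 64.5% of fetal liver cells, Ifi203 in 67.1% of bone marrow cells, and Aim2 in 18.5% of fetal liver and 33.6% of AGM cells. AGM levels rest on 1 origin code, and UMIs per cell limit every value near 0.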

Other observations

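Some inflammasome genes had more UMIs in AGM than in fetal liver. Nlrc4, a sensor of bacterial proteins, had 2 UMIs in fetal liver and 129 in AGM, a ratio of 0.0158 with an exact 95% counting interval of 0.0019 to 0.0582. Il1r1, the interleukin-1 receptor, had 2 UMIs in fetal liver and 93 in AGM, and 165 in bone marrow. Il1b had no UMI in fetal liver or bone marrow and 32 in 10 AGM cells, so it was at least 10.5-fold lower in fetal liver than in AGM. In fetal liver against AGM their adjusted p-values in edgeR were 0.255, 0.207 and 0.510 for Nlrc4, Il1r1 and Il1b, and edgeR on the 5 libraries called none of them in the other comparisons. With each plate as a library and the replicate block, Il1r1 was called higher in bone marrow than in fetal liver.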
